A study of Mus musculus with 4 samples.

Results

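Platelet and megakaryocyte genes were described in mouse spleen with and without the transcription factor Nrf2. The set was defined by name as 9 genes, Selp, Gp5, Gp9, Gp1bb, Itga2b, Itgb3, Pf4, Vwf and F5, and every probe set whose platform annotation gave 1 of these symbols alone was taken. This found 10 probe sets for 8 of the 9 genes, among 10833 probe sets for 8251 genes on the array that carried a single symbol. Itga2b had none and was skipped. Of the 10 probe sets, 6 were bright enough to be fitted, 1 each for Selp, Gp5, Gp9, Gp1bb, Vwf and F5. The other 4, those of Pf4 and Itgb3 and the second ones of Gp5 and Vwf, were dim and are given by their intensities.

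Total RNA came from spleens of female mice aged 5 months, 2 samples labelled Nrf2 knockout (nrf2 -/-) and 2 labelled wild type (nrf2 +/+). Both groups were littermates from interbred heterozygotes, which descended from Nrf2 +/+ C57B6/SJL and nrf2 -/- C57B6/129SVJ parents, so both carried a mixed background, and the labels give 1 mouse diet for all and name no treatment. The labels place this age before severe autoimmune disease, and they do not say whether a sample is 1 spleen or a pool or where the deletion lies. Standard errors thus reflect spread between samples, part of which may be technical. They come from limma, which draws the spread of each probe set towards that of others of like intensity (5.88 prior degrees of freedom). A standard error or interval is therefore not a measure of that gene's own spread alone. With only 4 arrays, all estimates are imprecise.

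Megakaryocytes are the large bone marrow cells that shed platelets, and in the mouse the red pulp of the spleen holds them too, besides storing circulating platelets. Platelets catch on damaged vessel walls when the glycoprotein Ib-IX-V complex binds von Willebrand factor, and they aggregate when the integrin made of the Itga2b and Itgb3 products binds fibrinogen. Their alpha granules carry P-selectin, platelet factor 4, von Willebrand factor and coagulation factor V, which are released or displayed on activation. Megakaryocyte genes are driven by GATA1, FLI1, RUNX1 and NF-E2. The larger subunit of NF-E2 belongs to the same CNC family as Nrf2 and shares its small Maf partners. Selp and Vwf are also expressed by endothelial cells, and F5 by the liver.

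The targeted gene separated the genotypes. The Nrf2 gene Nfe2l2 read 202 and 179 (knockout) against 3537 and 6321 (wild type), a log2 difference of -4.61 (SE 0.47, limma adjusted p = 0.0199 over 7453 probe sets). Leaving out wild-type replicate 1 gave an adjusted p of 0.143, and leaving out wild-type replicate 2 gave 0.0583. Array medians ranged from 799 to 855. Wild-type replicate 1 stood apart, with a Pearson's r across tested probe sets of 0.849 to 0.851 against the other arrays, whose r with each other reached 0.947. The spleen markers Cd79a and Cd79b of B cells, Cd3e of T cells and Cd5l of macrophages were above the floor in all 4 arrays. Of 7453 probe sets, 4 (0.0537%) had an adjusted p under 0.05, all lower in knockout spleen.

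All 6 fitted probe sets had a positive log2 difference between knockout and wild-type spleen, as did 53.7% of all tested probe sets. Selp, Gp5 and F5 were higher in both knockout arrays than in both wild-type arrays, while Gp9, Gp1bb and Vwf lay between the wild-type arrays. Both knockout arrays were above both wild-type arrays for 14.3% of all tested probe sets. The 9 genes were proposed with earlier results of this contrast known, so the differences are a description, and the counts past a threshold are given only beside their background, with nothing read from them. The median log2 difference of the 6 was 0.62, against 0.04 over all tested probe sets. Selp and Gp5 passed the fitting cutoff of 468 only through their knockout arrays, as their wild-type mean intensities were 425 and 216. The cutoff thus in part fixed the count of 6 and this median. With no filter, 8 of the 10 probe sets measured higher, and the median was 0.31. Without wild-type replicate 2 the median was 0.16 and 3 of the 6 measured higher, and without wild-type replicate 1 the median was 1.21. None of the 6 had an adjusted p under 0.05 in limma, beside the 0.0537% of all probe sets that did. In limma 2 of the 6 had an unadjusted p under 0.05 and measured higher, beside 0.778% of all tested probe sets that met both conditions. In whole spleen, a change in the number of cells of a type and a change in RNA per cell cannot be told apart.

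**Figure D1:**
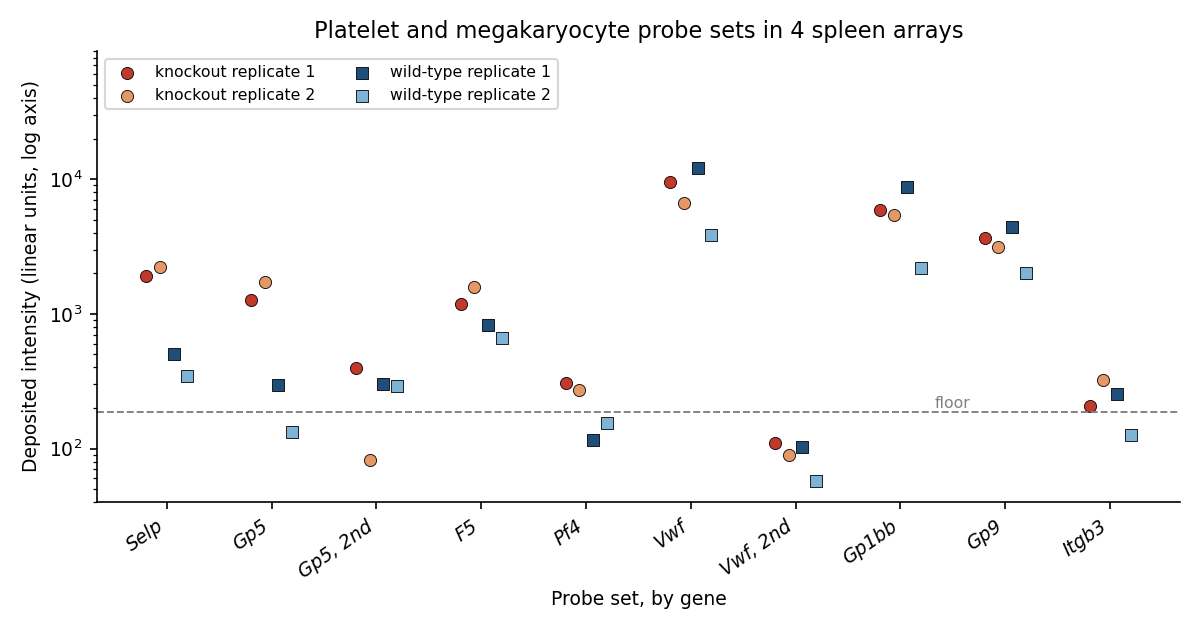
Deposited intensity on a log axis for the 10 probe sets of 8 genes in each array, circles for knockout and squares for wild type, with the floor of 185 as a dashed line. The knockout circles of Selp, F5, Pf4 and the fitted Gp5 probe set lie above both wild-type squares, whereas for Gp1bb, Gp9 and the fitted Vwf probe set they lie between wild-type replicate 1 above and wild-type replicate 2 below.

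Among granule and coagulation genes, Selp encodes P-selectin, an adhesion receptor that moves from granules to the surface of activated platelets and endothelium. It read 1926 and 2214 (knockout replicates 1 and 2) against 502 and 348 (wild-type replicates 1 and 2). The groups did not overlap, and the arrays of a genotype differed from each other by 1.15-fold in knockout and 1.44-fold in wild type. On the log2 scale, with intensities under 185 raised to that floor, the difference was 2.30 (SE 0.44, 95% confidence interval 1.28 to 3.33, n = 2 per group), a 4.94-fold higher level. With any 1 array left out it stayed between 2.04 and 2.57.

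F5 encodes coagulation factor V, the cofactor that speeds thrombin formation, which platelets carry in part. It read 1180.3 and 1573 (knockout) against 834 and 663 (wild type), again without overlap. The log2 difference was 0.87 (SE 0.43, interval -0.13 to 1.88), a 1.83-fold higher level, and 0.67 to 1.08 with 1 array left out. The interval included 0.

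Pf4 encodes platelet factor 4, a chemokine stored in alpha granules. It was dim, with 308 and 271 (knockout) against 115 and 154 (wild type). Both wild-type values lay below the floor, so knockout spleen was at least 1.56-fold higher, and no fit was made.

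Vwf encodes von Willebrand factor, the multimeric ligand that tethers platelets to collagen. Its brighter probe set read 9515 and 6688 (knockout) against 12041 and 3844 (wild-type replicates 1 and 2), so the groups overlapped. The log2 difference of 0.23 (SE 0.58, interval -1.12 to 1.57) was smaller than the wild-type arrays' own 3.13-fold gap, and it ran from -0.59 to 1.05 with 1 array left out. The second Vwf probe set read 110 and 89.4 against 103 and 57.6, below the floor in all 4 arrays.

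Of the glycoprotein Ib-IX-V complex, Gp5 encodes the subunit that thrombin cleaves on platelets. Its fitted probe set read 1261 and 1729 (knockout) against 298 and 133 (wild type). The knockout arrays were the higher pair, and the second wild-type value lay below the floor. With that value raised to the floor the log2 difference was 2.65 (SE 0.52, interval 1.46 to 3.84), a 6.28-fold higher level, and 2.31 to 2.99 with 1 array left out. With the floor at the 40th percentile, which raises both wild-type values, it was 1.63. The other Gp5 probe set did not show this, with 399 and 81.5 (knockout) against 301 and 290.4 (wild type). There the groups overlapped, the knockout arrays differed 4.89-fold from each other, and the probe set was too dim to fit.

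Gp9 encodes the small subunit GPIX, needed for the complex to reach the platelet surface. It read 3641 and 3144 (knockout) against 4417 and 2025 (wild type), with a log2 difference of 0.18 (SE 0.48, interval -0.92 to 1.28). Gp1bb encodes the GPIb beta chain, which is disulphide-linked to the chain that binds von Willebrand factor. It read 5885 and 5440.1 against 8704 and 2189, with a log2 difference of 0.37 (SE 0.63, interval -1.09 to 1.83). For both genes the knockout arrays were close together, within 1.16-fold and 1.08-fold, while the wild-type arrays differed 2.18-fold and 3.98-fold. Of these 3 subunits, Gp5 alone had separate groups, and on 1 of its 2 probe sets; differences between the subunits were not tested.

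The remaining gene, Itgb3, encodes the beta subunit of the fibrinogen receptor. It read 208 and 322 (knockout) against 254 and 126 (wild type), close to the floor, and the groups overlapped. The name of none of the 10 probe sets carries a mark of possible cross-hybridisation.

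**Figure D2:**
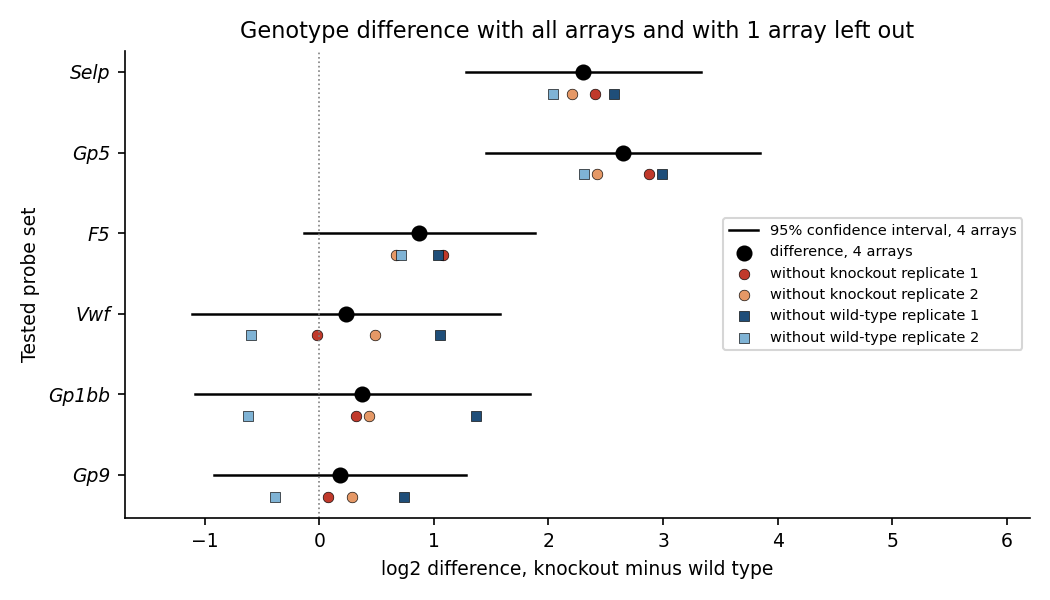
Log2 difference between knockout and wild-type spleen for the 6 fitted probe sets, with all 4 arrays (black point and 95% confidence interval) and with 1 array left out (coloured points below each line). Selp and Gp5 stay above 2 in every case, while Vwf, Gp1bb and Gp9 fall below 0 without wild-type replicate 2.

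Which wild-type array was used as the reference decided the direction for the bright genes of the set. Against wild-type replicate 2, both knockout arrays were higher for 6 of 6 fitted probe sets, as for 31.9% of all tested probe sets. Against wild-type replicate 1 this held for 3 of 6, as for 42.8% of all. The mean of the knockout arrays lay above wild-type replicate 2 by 1.37 on the log2 scale for Gp1bb, 1.05 for Vwf and 0.74 for Gp9. It lay below wild-type replicate 1, with differences of -0.62, -0.59 and -0.38 in the same order. Selp, Gp5 and F5 were above both, by 2.04, 2.31 and 0.71 against wild-type replicate 1 and by 2.57, 2.99 and 1.04 against wild-type replicate 2. The order with wild-type replicate 1 highest and wild-type replicate 2 lowest, seen for 3 of the 6, was that of 14.0% of all tested probe sets.

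**Figure D3:**
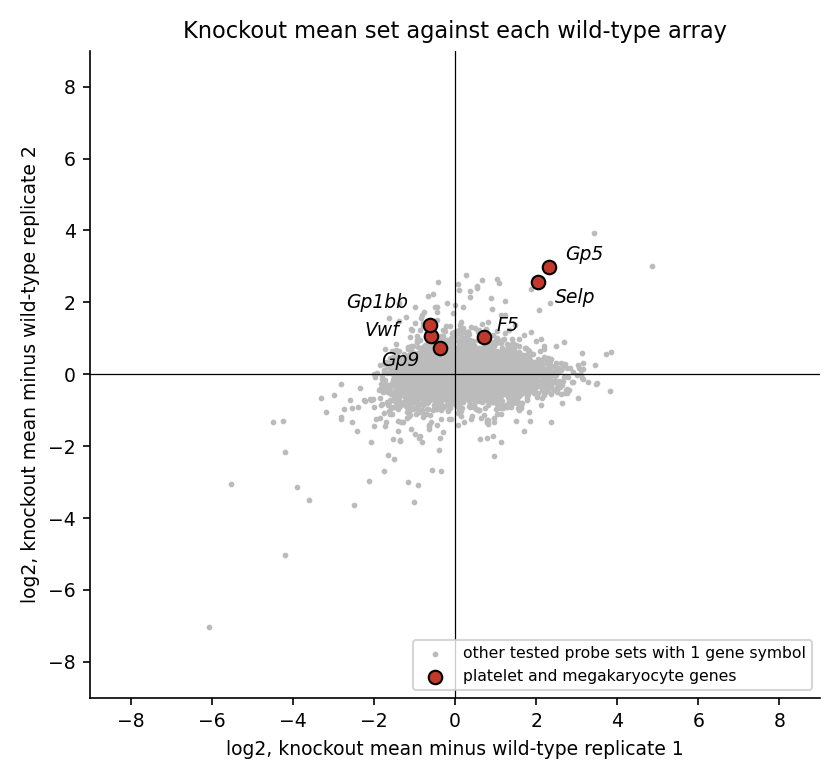
Mean log2 intensity of the knockout arrays minus wild-type replicate 1 (horizontal) and minus wild-type replicate 2 (vertical) for tested probe sets with 1 gene symbol in grey and the 6 fitted platelet and megakaryocyte probe sets in red. Selp and Gp5 lie above 2 on both axes, F5 is positive on both, and Gp1bb, Vwf and Gp9 are positive only against wild-type replicate 2.

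The gap between the wild-type arrays was set beside that of probe sets of like brightness, those whose mean log2 intensity lay within 0.5 of the gene's. This mean was taken over the arrays of both genotypes together. Wild-type replicate 1 exceeded replicate 2 by 1.99 for Gp1bb, where the 1295 probe sets of like brightness had a median gap of -0.13 and a 95th percentile of 1.15. The gap was 1.65 for Vwf, with a 95th percentile of 1.25 among 1006 probe sets, and 1.13 for Gp9, with 1.15 among 1647. For Selp, Gp5 and F5 it was 0.53, 0.68 and 0.33, below the 95th percentiles of 1.26, 1.48 and 1.26. The wild-type values of these genes lay below the mean used for matching, most of all for Selp and Gp5. Their comparison probe sets were thus not matched on wild-type brightness, and a match on it was not tested. The Gp5 gap is a lower limit, since its second wild-type value was raised to the floor. A wide wild-type gap is itself what lets knockout values fall between the wild-type arrays, so these gaps are a description and not a separate comparison of the genes.

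The promoters of the 4 genes with separate genotypes are shown because all 4 measured higher in both knockout arrays, and because GATA, ETS and CNC factors are the known regulators of platelet genes. Each run is the 250 bases before the transcription start, 5′ to 3′ on the gene's own strand, from RefSeq on GRCm38.p6. The windows are chr1:164115014-164115263 (plus strand), chr1:164151585-164151834 (plus), chr5:90772185-90772434 (plus) and chr16:30310782-30311031 (minus). Capitals mark letter matches on either strand to a GATA element (AGATAA or AGATAG, or with a first T, TGATAA or TGATAG), an ETS element (GGAAGT or GGAAGC, or with a different end, GGAAAT), the NF-E2 core TGACTCA or the antioxidant response core TGACNNNGC.
Selp: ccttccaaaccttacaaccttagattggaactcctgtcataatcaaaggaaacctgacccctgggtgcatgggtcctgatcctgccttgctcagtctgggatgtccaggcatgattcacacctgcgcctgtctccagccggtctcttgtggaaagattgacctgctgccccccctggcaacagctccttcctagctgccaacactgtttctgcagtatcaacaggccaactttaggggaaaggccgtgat
F5: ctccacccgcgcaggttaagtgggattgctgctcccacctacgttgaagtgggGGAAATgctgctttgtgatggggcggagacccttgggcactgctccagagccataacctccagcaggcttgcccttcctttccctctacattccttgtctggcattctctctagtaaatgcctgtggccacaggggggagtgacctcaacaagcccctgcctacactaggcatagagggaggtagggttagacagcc
Pf4: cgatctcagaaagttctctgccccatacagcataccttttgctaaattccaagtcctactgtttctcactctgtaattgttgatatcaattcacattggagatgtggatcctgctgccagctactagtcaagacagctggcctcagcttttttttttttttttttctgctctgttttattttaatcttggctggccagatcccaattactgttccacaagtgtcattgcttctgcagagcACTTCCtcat
Gp5: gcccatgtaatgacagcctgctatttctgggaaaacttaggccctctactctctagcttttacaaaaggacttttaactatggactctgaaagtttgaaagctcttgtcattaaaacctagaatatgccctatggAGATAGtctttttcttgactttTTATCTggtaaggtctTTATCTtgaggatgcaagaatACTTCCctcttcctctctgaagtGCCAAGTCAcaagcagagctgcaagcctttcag

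The Gp5 window held 3 GATA matches, which start 115, 93 and 77 bases before the transcription start, an ETS match at 56 bases and a match to the antioxidant response core at 33 bases. The F5 and Pf4 windows held 1 ETS match each, at 197 and 10 bases, and the Selp window held none of the 4 motifs. Among 32851 RefSeq windows of the same length, a GATA element was present in 26.5%, an ETS element in 46.8%, the NF-E2 core in 4.46% and the antioxidant response core in 10.2%. Of the 9 genes, 7 had a window, and Vwf and Itgb3 did not. The Gp9 and Gp1bb windows, whose genes overlapped between genotypes, held 2 and 1 ETS matches, and that of Gp1bb held 1 GATA match. The Itga2b window held 2 ETS matches. The NF-E2 and antioxidant response cores can overlap, and in these 7 windows no matches did. A match of letters is a description and not a binding site.

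**Figure D4:**
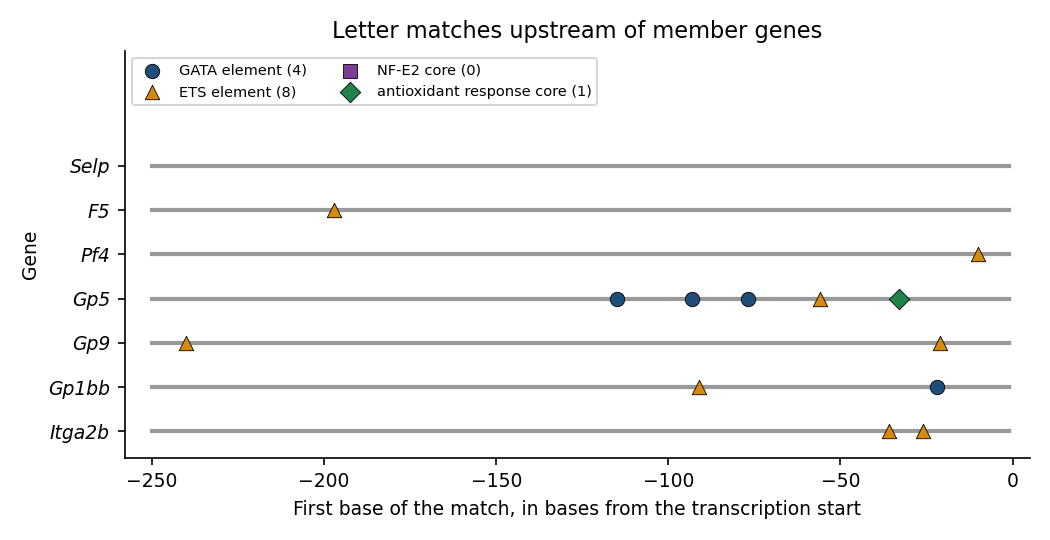
First base of each letter match in the 250 bases before the transcription start of 7 genes, in bases from that start, with 1 symbol per motif. Gp5 carries 5 matches, 3 of them to GATA elements, Selp carries none, and none of the 7 windows holds the NF-E2 core.

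Selp and F5 are neighbouring protein-coding genes in the reference gene table, and Sele lies near them. Sele, the endothelial selectin, read 127 and 22.7 (knockout) against 157 and 69 (wild type), below the floor in all arrays. Ppbp, beside Pf4, had no probe set with that symbol alone and was not analysed here. A further probe set assigned to both Gp1bb and its neighbour Septin5, which cannot be told apart there, read 431 and 525 (knockout) against 497 and 316 (wild type), and the groups overlapped.

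Other genes of platelets and megakaryocytes were followed in 4 lists of 76 genes in all, of which 56 were measured and 47 were bright enough, by 59 probe sets. None of the 59 had a limma adjusted p under 0.05, and none an unadjusted p under 0.05. Only 42 of the 59 had names without a mark of possible cross-hybridisation. Of the 59, 34 measured higher and 25 lower, with a median log2 difference of 0.07 against 0.04 over all tested probe sets. Both knockout arrays were above both wild-type arrays for 13 of the 59 (22.0%), against 14.3% of all, and below for 3, against 12.2% of all.

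Among other surface receptors and adhesion genes, 6 of 9 probe sets measured higher, with a median of 0.18. Cd9, a tetraspanin abundant on platelets, read 10730 and 10183 (knockout) against 6368 and 6973 (wild type) (log2 0.65, SE 0.39, limma adjusted p = 0.992). Itga6, the laminin receptor alpha subunit, read 2112 and 1761 against 737 and 1475 (log2 0.89, SE 0.47, limma adjusted p = 0.992). The junction gene F11r differed by 0.57 and 1 of the Itgb1 probe sets by 0.56, with the same adjusted p. A brighter Itgb1 probe set differed by 0.18, and the names of both mark possible cross-hybridisation. Platelet Itga2, the collagen receptor alpha subunit, was too dim to fit and read 253 and 233 against 111 and 292.

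For agonist receptors and signalling genes, 14 of 17 probe sets were measured higher, and the median was 0.25. Alox12, the 12-lipoxygenase of platelets, read 5576 and 4535 (knockout) against 3443 and 3091 (wild type) (log2 0.62, SE 0.39, limma adjusted p = 0.992). The thrombin receptor genes had a probe set each without overlap. F2r read 1375 and 1455 against 1140.3 and 1042, F2rl2 read 1169 and 1562 against 801 and 1083, and F2rl3 read 2579 and 2626 against 2380.3 and 2001. These gaps were small, and the brighter of the other F2r probe sets overlapped, with 13961 and 14123 against 8599 and 16889. P2rx1, the ATP-gated channel of platelets, read 2770 and 2670 against 2815 and 1543, and the thromboxane receptor gene Tbxa2r 1736 and 1357 against 3433 and 952, both with wild-type replicate 1 highest and wild-type replicate 2 lowest. Fcer1g, Lcp2 and Btk, signalling genes that many leukocytes share, differed by 0.91, 0.77 and 0.92 (limma adjusted p = 0.992 for each). Btk read 9638 and 7423 against 2168 and 9175, so the groups overlapped. Without wild-type replicate 1, Btk differed by -0.12 and Lcp2 by 0.34. The name of this Fcer1g probe set marks possible cross-hybridisation.

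Other granule and cytoskeleton genes were divided, with 9 of 17 probe sets higher and a median of 0.06. The growth factor gene Pdgfa read 2535 and 3230.2 (knockout) against 1749 and 2055 (wild type) (log2 0.59, SE 0.39, limma adjusted p = 0.992). Clusterin, Clu, differed by -0.59, the beta-tubulin gene Tubb2a by -0.50 and the secretion gene Stxbp2 by -0.45, each on the probe set with the smaller p. The name of this Tubb2a probe set marks possible cross-hybridisation.

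Transcription factors of the lineage were mostly measured lower. Of 16 probe sets, 11 measured lower and 5 higher, with a median of -0.34, and knockout replicate 1 was the lowest array in 8. The share of all tested probe sets lowest in that array was not computed. Gata1, which drives both red cell and megakaryocyte genes, read 764 and 3949 (knockout replicates 1 and 2) against 2784 and 2344 (wild-type replicates 1 and 2). Nfe2, the CNC subunit of NF-E2, read 7172, 18904, 29427 and 8431 in the same order, and Tal1, a partner of GATA1, read 968, 5924, 2826 and 4398. Gfi1b, a repressor that acts in both lineages, read 2126, 5694, 8351 and 3632. With 1 array left out, the log2 difference ran from -1.74 to 0.63 for this Gata1 probe set and from -1.34 to 0.47 for Nfe2. It ran from -1.86 to 0.75 for Tal1 and from -1.37 to 0.05 for Gfi1b, so the direction of each depended on single arrays. Gata1, Nfe2 and Tal1 were named after their values were seen, and they and Gfi1b were each lowest in knockout replicate 1. Zfpm1 differed by -0.16 (-1.11 to 0.79 with 1 array left out) and Mafk by 0.03 (-0.33 to 0.39). Not every gene of the list is given here, and Fli1 and Runx1 are among those left out. Mafg, a small Maf that pairs with NF-E2 and Nrf2, read 2498 and 3632 (knockout) against 1783 and 1714 (wild type) (log2 0.78, SE 0.40, limma adjusted p = 0.992), while its dim second probe set overlapped. Lyl1 differed by -0.68, but by 0.06 without wild-type replicate 1. A brighter Lyl1 probe set, whose name marks possible cross-hybridisation, differed by -0.62, and by 0.35 without that array. Ldb1 differed by -0.47, and by -0.57 to -0.37 with 1 array left out.

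Markers of other cells were set beside these values, and none of their probe sets had a limma adjusted p under 0.05. Of 11 tested neutrophil probe sets, 11 measured higher in knockout spleen, and 7 had both knockout arrays above both wild-type arrays, beside 53.7% and 14.3% of all tested probe sets. The summed intensity of the 12 neutrophil probe sets was 515101 and 576597 (knockout) against 702777 and 175136 (wild-type replicates 1 and 2), and no gene of that list was below the floor throughout. The sum over the 10 platelet and megakaryocyte probe sets had the same order of groups, with the knockout sums of 24433 and 21553 between the wild-type sums of 27570.0 and 9829. The brightest probe sets, those of Vwf and Gp1bb, carry much of the latter sum. By the median of centred log2 intensity, which weights probe sets equally, both knockout arrays were above wild-type replicate 1, at 0.31 and 0.39 against 0.10 for the platelet and megakaryocyte genes and at 0.38 and 0.66 against 0.32 for the neutrophil markers. By either summary wild-type replicate 2 was lowest, and the part of this in the differences of Gp9, Gp1bb and Vwf was not tested.

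Endothelial markers, which bear on Selp and Vwf, had 8 of 11 tested probe sets higher and a median of 0.30. Their sum over 18 probe sets was 40109 and 40112 (knockout) against 62891 and 36338 (wild type), so the knockout sums lay between the wild-type sums. Cdh5, the cadherin of endothelial junctions, read 2102 and 2501 against 1441 and 1955, a smaller gap than that of Selp, while Kdr, Tek and both Tie1 probe sets overlapped. The fitted Emcn probe set also had both knockout arrays higher, with 684 and 778 against 683 and 486. Icam2 had both lower, with 2270.1 and 1562 against 3841 and 2865 (log2 -0.82), and Eng overlapped, with a log2 difference of -0.45. Nos3, Ptprb and Sele were below the floor in all arrays.

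Erythroid markers had 7 of 7 tested probe sets lower in knockout spleen, and knockout replicate 1 was the lowest array in all 7. Their sum was 166106 and 284904 (knockout replicates 1 and 2) against 463065 and 241507 (wild type). None of the 6 fitted platelet and megakaryocyte probe sets was lowest in knockout replicate 1, as follows from the array orders given above. The share of all tested probe sets lowest in that array was not computed, so nothing is read from these counts. Of 4 liver marker probe sets, which bear on F5, 1 was bright enough to fit, that of Alb, and it measured lower, at 488 and 360.0 (knockout) against 840.2 and 4894 (wild type). Mast cell and basophil markers, of which 3 of 9 probe sets were bright enough and all 3 measured higher, summed to 6382 and 7507 (knockout) against 6883 and 4069 (wild type). B cell markers measured lower in 6 of 7 probe sets (median -0.48) and T cell markers in 4 of 5 (median -0.21), while macrophage markers measured higher in 6 of 10. Exocrine pancreas markers measured lower in 6 of 6, with a median of -2.01. In all 6, both knockout arrays were below both wild-type arrays, beside 12.2% of all tested probe sets. Their sum was 7826 and 9428 (knockout) against 78603 and 20506 (wild-type replicates 1 and 2). The part of these cell types in the values of Selp, Gp5 and F5 was not tested.

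**Figure D5:**
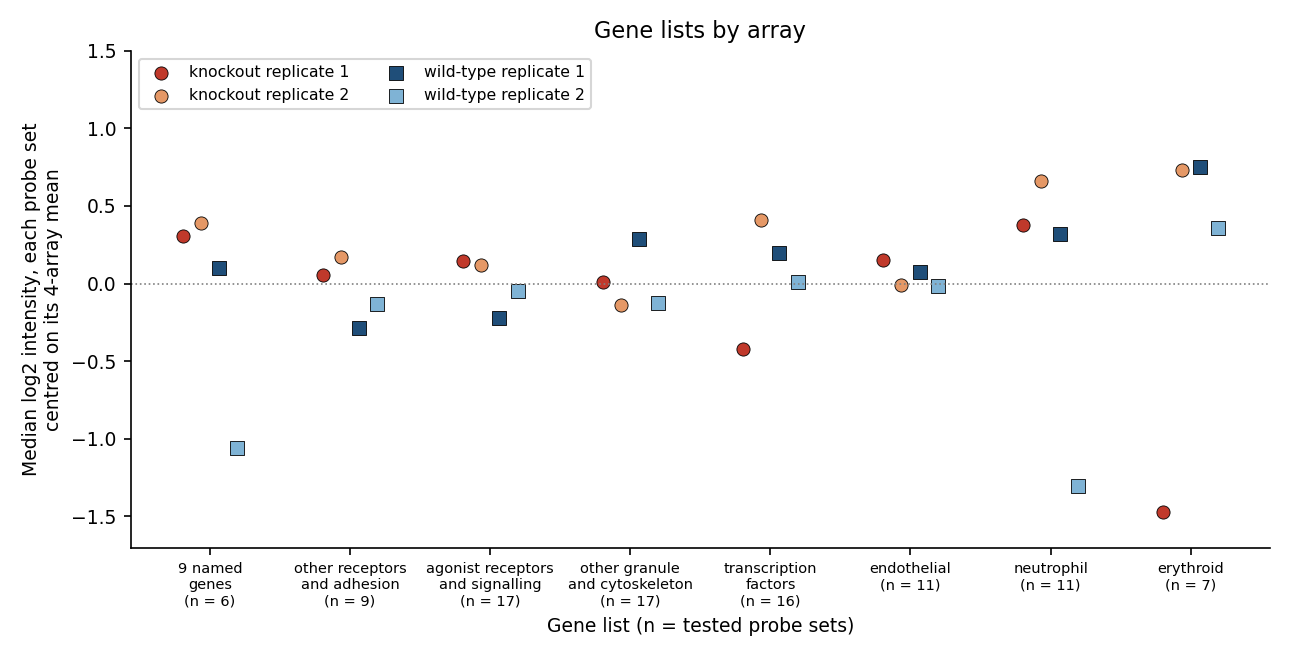
Median over each gene list of log2 intensity centred on each probe set's mean over the 4 arrays, with circles for knockout and squares for wild type. The platelet and megakaryocyte genes and the neutrophil markers are both lowest in wild-type replicate 2 (-1.06 and -1.31), whereas transcription factors and erythroid markers are lowest in knockout replicate 1 (-0.42 and -1.47).

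The probe sets most like Selp and Gp5 over the 4 arrays were found by the root mean square distance of centred log2 intensity, among 6702 tested probe sets of other single genes. For Selp the nearest was Chil3, a chitinase-like gene of myeloid cells that is in the neutrophil list, at 0.16, which read 33018 and 29418 (knockout) against 8527 and 6056 (wild type). Gp5 was the next, at 0.20, and the glutathione transferase gene Mgst1 the third, at 0.34. For Gp5 the nearest was Selp, at 0.20, then Chil3 at 0.35 and the noradrenaline transporter gene Slc6a2 at 0.50. F5 ranked 35 from Selp at a distance of 0.72, while Gp9, Gp1bb and Vwf ranked 1705, 1807 and 2393, at 1.09, 1.10 and 1.14. These distances rest on 4 arrays and on the contrast by which the genes were chosen.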

How the data were processed

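Total RNA from 4 spleen samples, 2 knockout and 2 wild type, was measured on 1-colour arrays. The deposited values are probe-set intensities on a linear scale, 1 for each of 12488 probe sets. Software and scaling behind the deposited values: not given in the sources used here.

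Intensities were used as deposited. The 66 control probe sets were left out, values under the pooled 25th percentile (185) were raised to it, log2 was taken, and the 7453 probe sets with a mean log2 intensity above the 40th percentile (468 on the linear scale) were fitted with limma 3.58.1 in R 4.3.3 (lmFit, eBayes with an intensity trend, two-sided, Benjamini-Hochberg adjustment over all 7453, threshold 0.05). A fold on this scale understates differences of dim genes. Symbols came from the platform annotation, updated by gene identifier through the GRCm38.p6 reference gene table; 396 probe sets with several symbols and 1193 with none were not used to name genes. Motifs were counted by letters in RefSeq promoter sequences. Figures used matplotlib 3.10.9 in Python 3.11.15.

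The members, lists and tests were chosen with earlier results of these data known. Named were every member, the neighbours of members, 3 probe sets most like Selp and Gp5, and from each further list those past the threshold and the 4 with the smallest p. Other list and marker genes named, such as the thrombin receptors, regulators and endothelial markers, were chosen after their values were seen. A list of coagulation genes is described in the closing section. The fit was tested on simulated data. The alternatives changed the filter, the floor, the scaling or the intensity trend, blocked on replicate number, dropped cross-hybridising probe sets, or left out each array in turn; cyclic loess scaling and counts against each wild-type array alone were added after seeing the data.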

Additional observations from a re-analysis of the deposited data

How the results depend on the processing

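With 1 array left out, the count of fitted platelet and megakaryocyte probe sets measuring higher ranged from 3 to 6 and their median log2 difference from 0.16 to 1.21. The count was 3 without wild-type replicate 2, where Gp9, Gp1bb and Vwf turned to -0.38, -0.62 and -0.59, and 5 without knockout replicate 1, where Vwf was -0.02. The median was 1.21 without wild-type replicate 1. With a filter at the 60th percentile only 3 were fitted and all 3 were higher, with a median of 0.23. With no filter, 8 of 10 were higher, with a median of 0.31. The median thus depended on the filter, which Selp and Gp5 passed only through their knockout arrays. All 6 were higher under quantile, median and cyclic loess scaling. Gp5 differed by 1.63 with the floor at the 40th percentile, which raises both of its wild-type values. None of the 6 passed the threshold under 13 of 14 alternatives. The exception was the replicate number as a block, which 2 passed, Selp and Gp5, among 36 of 7453 probe sets (0.483%). The labels do not say that the number pairs animals, and the arrays' deviations by number correlated at 0.04, so this block has no stated basis. Of all tested probe sets, 4 passed, against 0 when dim probe sets were kept (339 had an unadjusted p under 0.05), 2 without cross-hybridising probe sets and 3 to 13 with 1 array left out, 10 without knockout replicate 1 and 13 without knockout replicate 2. None of the other platelet and megakaryocyte probe sets passed in limma under any of the 14 alternatives. Brightness limited the set: 4 of its 10 probe sets were too dim to fit.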

Other observations

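Coagulation genes outside the platelet set were measured for 19 of 20 genes, and 11 of 24 probe sets were bright enough to fit. Of the 11, 7 measured higher and 4 lower in knockout spleen, with a median log2 difference of 0.08, and none had a limma adjusted p under 0.05, while 1 had an unadjusted p under 0.05. Pros1, which encodes the anticoagulant protein S, read 3408 and 3114 (knockout) against 1405 and 2840.0 (wild type) (log2 0.71, SE 0.46, limma adjusted p = 0.992). Thbd, the endothelial thrombin receptor thrombomodulin, read 1419 and 1499 against 424 and 1855, so wild-type replicate 1 alone was low there, while its other probe set read 1619 and 1818 against 1608 and 1422, with wild-type replicate 2 lowest. A plasminogen (Plg) probe set whose name marks possible cross-hybridisation read 518 and 668 against 1241 and 1691 (log2 -1.30, SE 0.45, limma adjusted p = 0.992), and the other Plg probe set was too dim to fit. Procr, the endothelial protein C receptor, differed by -0.37. Of the liver-made factors, Fgb and Serpinc1 were below the floor in all 4 arrays, and both Proc probe sets were too dim on average to fit. The first Proc probe set read 76.2 and 122 (knockout, both below the floor) against 1298 and 468 (wild type), without overlap, and the other read 210.0 and 389 against 549 and 141, with overlap.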
